A study of Mus musculus with 24 samples.

Results

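The 9 genes described here encode the RNA-binding proteins of the RBPMS, RBFOX and ELAVL families (Rbpms, Rbpms2, Rbfox1, Rbfox2, Rbfox3, Elavl1, Elavl2, Elavl3 and Elavl4). They were taken by gene symbol from the tables of whole-retina RNA-Seq after blast-mediated traumatic brain injury (bTBI), and all 9 were present among the 14922 genes measured at 1 week and among the 15920 genes measured at 5 weeks. The study asked which transcripts of the retina had changed at these early times after a blast. Of the 24 retinas, 6 came from bTBI mice and 6 from sham mice at each timepoint. The bTBI mice, adult C57BL/6J males, received a blast wave inside an enclosed chamber, and their retinas were collected at 1 week (8 days in the sample labels) or 5 weeks. Sham mice were of the same strain and sex and were not exposed to the blast. The kit for RNA was RNeasy Plus Mini for the 1-week retinas but RNeasy Mini for the 5-week retinas, so that time and kit cannot be told apart. The labels give the cell type as retinal ganglion cell (RGC), whereas rod marker genes averaged 12.13 to 12.46 on the log2(CPM + 1) scale and RGC marker genes 4.87 to 6.45 across the 24 retinas, so the samples are described here as whole retina. At 1 week, bTBI replicates 5 and 6 stood apart in lens genes (means of 7.21 and 7.52 on the same scale over 11 genes, vs. 0.941 to 4.59 in the other 10 retinas), and bTBI replicate 3 stood apart in myelin genes (9.25 over 3 genes, vs. 3.67 to 5.76 in the other retinas).

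RNA-binding proteins recognize short sequences in pre-mRNA and mRNA and set how a transcript is spliced, exported, stabilized and translated. RBPMS and its paralog RBPMS2 carry a single RNA recognition motif and, in the mammalian retina, mark RGCs, the output neurons whose axons form the optic nerve; RBPMS is also known from smooth muscle. RBFOX proteins bind the motif UGCAUG and regulate neuronal splicing. Rbfox3 encodes NeuN, the antigen used throughout neuroscience to mark neuronal nuclei, Rbfox1 is expressed in neurons and muscle, and Rbfox2 is expressed in many tissues. ELAVL (Hu) proteins bind AU-rich and U-rich stretches. Elavl2, Elavl3 and Elavl4 (HuB, HuC and HuD) are neuronal, and antibodies against HuC and HuD label RGCs and amacrine cells, the interneurons of the inner retina, whereas Elavl1 (HuR) is expressed in nearly all cells.

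Levels differed widely between the genes, within each family. To compare genes, CPM values (read counts of a gene scaled by the effective library size) were divided by the exonic length of the gene in kilobases. On this per-kilobase level the bTBI retinas at 1 week had the order Rbfox2 (13.1 ± 0.847), Elavl3 (12.2 ± 1.17), Rbpms2 (10.4 ± 1.94), Rbfox1 (10.1 ± 0.572), Elavl1 (5.10 ± 0.258), Elavl4 (4.70 ± 0.553), Rbpms (3.96 ± 0.680), Rbfox3 (3.76 ± 0.382) and Elavl2 (2.45 ± 0.445; SD, n = 6 for each). In these retinas only Rbfox1 and Elavl1 were neighbors in the order without overlapping ranges. In sham retinas at 1 week Rbpms2 came first (16.1 ± 1.03 CPM per kb), ahead of Rbfox2 (14.2 ± 0.760), Elavl3 (14.0 ± 1.43) and Rbfox1 (12.6 ± 1.34). Rbpms (5.63 ± 0.535), Elavl4 (5.51 ± 0.376), Elavl1 (5.04 ± 0.397) and Rbfox3 (4.90 ± 0.346) followed, and Elavl2 (3.46 ± 0.147) was last. The sham ranges of neighbors overlapped except between Rbfox1 and Rbpms and between Rbfox3 and Elavl2. Rbpms2 thus held the first place in sham retinas and the third in bTBI retinas, with a mean below those of Rbfox2 and Elavl3. At 5 weeks Rbfox2 was highest (12.8 ± 0.424 CPM per kb in bTBI retinas and 13.8 ± 0.648 in sham retinas) and Elavl2 lowest (1.88 ± 0.220 in bTBI retinas and 2.33 ± 0.190 in sham retinas), and Rbpms2 was the fourth in both groups (7.28 ± 1.11 CPM per kb in bTBI retinas and 11.5 ± 1.07 in sham retinas). Elavl1, Rbpms, Rbfox3 and Elavl4 followed, in that order in sham retinas, where Elavl1 did not overlap with its neighbors, whereas Rbpms came after Rbfox3 and Elavl4 in bTBI retinas.

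Genes were called at an adjusted p below 0.005. Transcripts of the RGC-restricted genes and of part of the neuronal genes were called lower in bTBI retinas, and no member was called higher. Without adjustment, a limma p below 0.05 was found for 8 of the 9 members at each timepoint, all but Elavl1 and all lower. The count over all genes was 2575 of 14922 at 1 week and 1739 of 15920 at 5 weeks. At 1 week 4 of the 9 genes were called, all lower (Rbpms, Rbpms2, Rbfox3 and Elavl2), where 0.985% of all genes were called lower and 2.25% were called in either direction. At 5 weeks 3 of the 9 were called lower (Rbpms, Rbpms2 and Rbfox3), where 0.823% of all genes were called lower and 0.835% in either direction. The members were chosen with earlier results of these data known, so these shares describe the 9 genes and do not test them against the rest. The median log2 fold change of the 9 genes was -0.31 at 1 week and -0.26 at 5 weeks, whereas the medians over all genes were -2.35e-04 and 0.00125. Every bTBI retina lay below every sham retina for 5 members at 1 week and 3 members at 5 weeks, compared with 2.25% and 1.75% of all genes. Of the 1-week calls, 3 were close to the threshold. When any retina except bTBI replicate 2 was left out, Rbpms2 alone was called at 1 week, with limma adjusted p-values of up to 0.0156 for Rbpms, 0.0151 for Rbfox3 and 0.0121 for Elavl2, and without bTBI replicate 2 the same 4 genes were called. In bulk retina fewer cells of a type and less RNA per cell cannot be told apart.

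**Figure D1:**
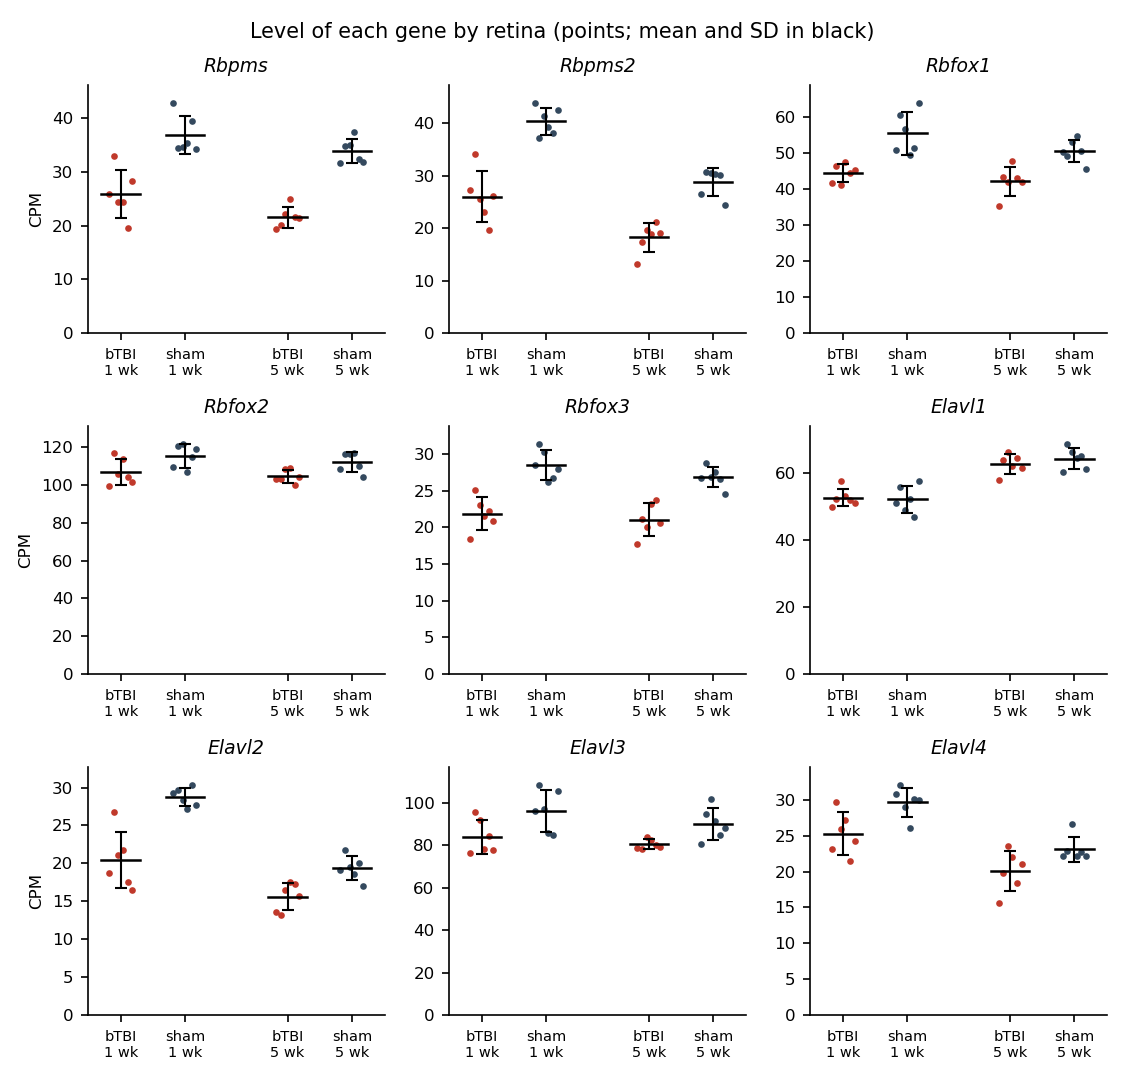
Level of each gene in CPM (y axis, from 0) in the 24 retinas, by group (x axis), with 1 point a retina and the mean and SD in black. For Rbpms, Rbpms2 and Rbfox3 the 6 bTBI retinas lie below the 6 sham retinas at both timepoints, and for Elavl1 the groups overlap.

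**Figure D2:**
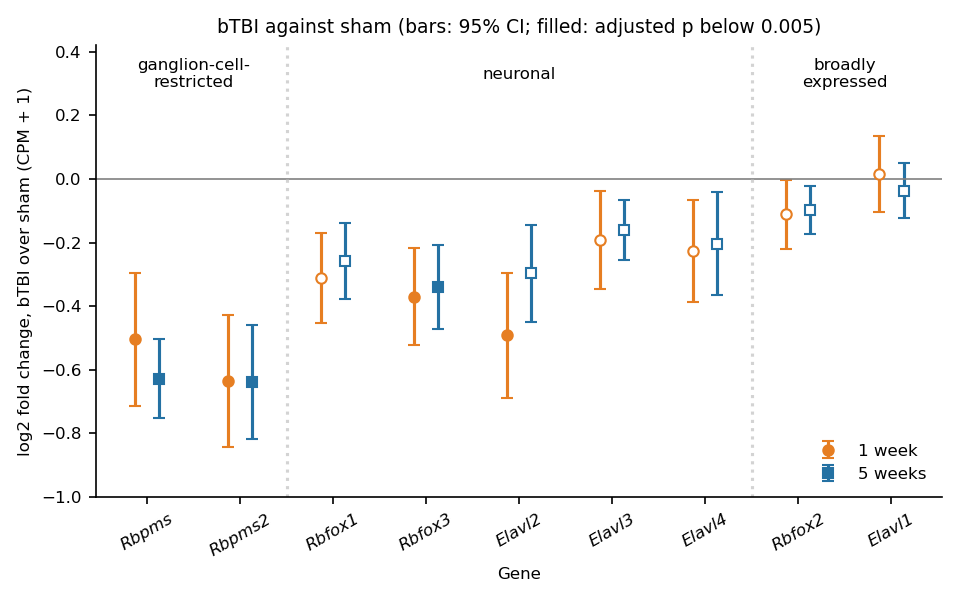
log2 fold change of bTBI over sham (y axis, log2 of CPM + 1) for each gene (x axis) at 1 week (circles) and 5 weeks (squares), with 95% confidence intervals and filled symbols for an adjusted p below 0.005. Rbpms and Rbpms2 lie between -0.64 and -0.50, the neuronal genes between -0.49 and -0.16, and Rbfox2 and Elavl1 between -0.11 and 0.02.

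Rbpms2 had the largest decrease of the 9 genes at 1 week and, at 5 weeks, a decrease close to that of Rbpms. At 1 week it ranged from 19.6 to 34.2 CPM in bTBI retinas (median 25.9), vs. 37.3 to 43.9 CPM in sham retinas (median 40.4), and all 6 bTBI retinas were below the lowest sham retina. The mean in bTBI retinas was 64.3% of the sham mean, with a log2 fold change of -0.63 ± 0.098 (SE; limma adjusted p = 9.22e-04). At 5 weeks it ranged from 13.2 to 21.3 CPM in bTBI retinas (median 19.0), vs. 24.4 to 30.8 CPM in sham retinas (median 30.2), again without overlap. The bTBI mean was 63.4% of the sham mean at that time, with a log2 fold change of -0.64 ± 0.087 (SE; limma adjusted p = 1.23e-04). The gene lies on the + strand at chr9:65629648-65660528 (GRCm38). The order of Rbpms2 and Rbpms at 5 weeks turned round when bTBI replicate 1 or 4 or sham replicate 2 or 5 was left out. The call at 1 week held in each of the 12 fits that left out a retina (highest limma adjusted p = 0.00335).

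Rbpms, the paralog whose protein is the standard RGC label, is encoded on the - strand at chr8:33782643-33929863. At 1 week it ranged from 19.6 to 33.0 CPM in bTBI retinas (median 25.2), vs. 34.4 to 42.9 CPM in sham retinas (median 35.1). The bTBI retinas were spread widely, and the highest of them, replicate 2, stayed below the lowest sham retina. The bTBI mean was 70.3% of the sham mean (log2 fold change -0.50 ± 0.098, SE; limma adjusted p = 0.00483). In the paper's edgeR test, Rbpms at 1 week had a similar log2 fold change but an adjusted p slightly above 0.005. At 5 weeks Rbpms ranged from 19.3 to 25.0 CPM in bTBI retinas (median 21.5), vs. 31.7 to 37.5 CPM in sham retinas (median 33.7). The groups were farther apart than at 1 week in relation to their spread, with SDs of 1.96 CPM in bTBI retinas and 2.28 CPM in sham retinas, compared with 4.46 and 3.51 CPM at 1 week. The bTBI mean was 63.8% of the sham mean (log2 fold change -0.63 ± 0.060, SE; limma adjusted p = 1.84e-06), and the call held in every fit that left out a retina (highest limma adjusted p = 1.42e-05). Markers of vascular mural cells, the contractile cells of the vessel wall, were measured beside Rbpms because it is also a smooth muscle gene. None of the 8 measured at each timepoint was called (2 had an unadjusted limma p below 0.05 at 1 week and 0 at 5 weeks), with median log2 fold changes of 0.16 at 1 week and 0.085 at 5 weeks, compared with -2.35e-04 and 0.00125 over all genes. Over all genes, 2575 of 14922 had such an unadjusted limma p at 1 week and 1739 of 15920 at 5 weeks. The mean log2(CPM + 1) of the mural markers at 1 week was 4.311 and 4.075 in the lens-rich bTBI replicates 5 and 6. It was 3.591 to 3.786 in the other bTBI retinas and 3.557 to 3.895 in sham retinas.

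Among the RBFOX genes, Rbfox3 was called at both timepoints. At 1 week Rbfox3 ranged from 18.5 to 25.1 CPM in bTBI retinas (median 21.9), vs. 26.2 to 31.4 CPM in sham retinas (median 28.2), with a log2 fold change of -0.37 ± 0.071 (SE; limma adjusted p = 0.00452). At 5 weeks it ranged from 17.7 to 23.7 CPM in bTBI retinas (median 20.8), vs. 24.6 to 28.7 CPM in sham retinas (median 26.8), with a log2 fold change of -0.34 ± 0.063 (SE; limma adjusted p = 0.00321). The groups did not overlap at either time, and the bTBI mean at 5 weeks was 78.5% of the sham mean. The 5-week call was lost in 9 of the 12 fits that left out a retina, those without bTBI replicate 1, 2, 3 or 6 or without sham replicate 1, 2, 3, 4 or 5, where limma adjusted p-values ran up to 0.013. Rbfox3 lies on the - strand at chr11:118489762-118911597.

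Rbfox1, on the + strand at chr16:5885355-7411526, was close to the threshold without passing it. At 1 week it ranged from 41.1 to 47.4 CPM in bTBI retinas (median 44.9), vs. 49.3 to 63.9 CPM in sham retinas (median 54.0), without overlap (log2 fold change -0.31 ± 0.067, SE; limma adjusted p = 0.00951). At 5 weeks it ranged from 35.3 to 47.7 CPM in bTBI retinas (median 42.5), vs. 45.6 to 54.7 CPM in sham retinas (median 50.5), where bTBI replicate 4 lay within the sham range. The bTBI means were 80.0% and 83.4% of the sham means at 1 and 5 weeks, with a limma adjusted p of 0.0149 at 5 weeks that became 0.00275 without bTBI replicate 4 and 0.0541, the highest of these fits, without sham replicate 4. Leaving out each of the other 10 retinas did not bring a call either. A single fit of all 24 retinas called Rbfox1 at 1 week (limma adjusted p = 0.00161) but not at 5 weeks (limma adjusted p = 0.0355). Rbfox2, the broadly expressed RBFOX gene at chr15:77078990-77307004 (- strand), ranged from 99.4 to 117 CPM in bTBI retinas and from 107 to 122 CPM in sham retinas at 1 week. Its groups overlapped at both timepoints, with means in bTBI retinas of 92.6% and 93.3% of the sham means and log2 fold changes of -0.11 (95% CI -0.22 to -0.0024) and -0.099 (95% CI -0.17 to -0.023). Neither passed the threshold (limma adjusted p = 0.275 and 0.254).

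Among the ELAVL genes, Elavl2 was the only one called, and only at 1 week. It ranged from 16.4 to 26.7 CPM in bTBI retinas at 1 week (median 19.9), vs. 27.2 to 30.3 CPM in sham retinas (median 28.8), so the groups did not overlap. The bTBI mean was 71.0% of the sham mean (log2 fold change -0.49 ± 0.092, SE; limma adjusted p = 0.00371). By 5 weeks Elavl2 had 13.2 to 17.5 CPM in bTBI retinas (median 16.1), vs. 17.1 to 21.8 CPM in sham retinas (median 19.3), and 4 of 6 bTBI retinas were below every sham retina (log2 fold change -0.30 ± 0.074, SE; limma adjusted p = 0.0349). Elavl2 lies on the - strand at chr4:91250763-91400785, and Elavl4 at chr4:110203722-110351909 on the same strand.

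Elavl4, whose protein HuD stabilizes mRNAs of growing axons, ranged from 21.5 to 29.8 CPM in bTBI retinas (median 25.1) and from 26.1 to 32.1 CPM in sham retinas (median 30.04) at 1 week. At 5 weeks Elavl4 ranged from 15.6 to 23.6 CPM in bTBI retinas (median 20.4) and from 22.1 to 26.7 CPM in sham retinas (median 22.4). The groups overlapped at both timepoints, and the log2 fold changes of -0.23 ± 0.075 and -0.20 ± 0.077 (SE) were not called (limma adjusted p = 0.0983 and 0.281). Elavl3, at chr9:22015005-22052023 (- strand), ranged from 76.5 to 95.7 CPM in bTBI retinas and from 84.8 to 109 CPM in sham retinas at 1 week, with log2 fold changes of -0.19 ± 0.073 at 1 week and -0.16 ± 0.046 at 5 weeks (SE; limma adjusted p = 0.163 and 0.0881). Elavl1, the ubiquitous family member at chr8:4285382-4325413 (- strand), had nearly the same level in both groups. At 1 week it had 50.1 to 57.8 CPM in bTBI retinas and 46.9 to 57.8 CPM in sham retinas. The 5-week range was 58.1 to 66.4 CPM in bTBI retinas and 60.3 to 68.8 CPM in sham retinas. Its log2 fold change was 0.017 at 1 week (95% CI -0.10 to 0.14; limma adjusted p = 0.930) and -0.036 at 5 weeks (95% CI -0.12 to 0.050; limma adjusted p = 0.852), so that both intervals leave out a decrease of the size measured for Rbpms2.

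The upstream sequences of 3 genes are shown to set an RGC-restricted gene (Rbpms2) and the neuronal gene called at both timepoints (Rbfox3) beside the broadly expressed Elavl1. Each is the 250 bases before a RefSeq transcription start (GRCm38.p6), in transcript orientation. Capitals mark matches on either strand to the GC box (GGGCGG, copies of which can overlap), the CCAAT box, the E-box (CACGTG) or the homeodomain palindrome (TAATTA). All 3 windows lie inside the span that GENCODE M21 annotates for their gene. They are chr9:65630332-65630581 (+ strand, 23 bases in exons annotated for the gene), chr11:118761042-118761291 (- strand, 0 bases in exons) and chr8:4325101-4325350 (- strand, all 250 bases in annotated exons).
Rbpms2: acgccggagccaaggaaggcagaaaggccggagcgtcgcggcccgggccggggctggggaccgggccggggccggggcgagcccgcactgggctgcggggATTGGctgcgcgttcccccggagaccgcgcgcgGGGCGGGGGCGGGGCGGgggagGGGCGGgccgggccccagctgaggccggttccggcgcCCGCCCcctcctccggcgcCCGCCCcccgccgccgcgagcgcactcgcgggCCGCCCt
Rbfox3: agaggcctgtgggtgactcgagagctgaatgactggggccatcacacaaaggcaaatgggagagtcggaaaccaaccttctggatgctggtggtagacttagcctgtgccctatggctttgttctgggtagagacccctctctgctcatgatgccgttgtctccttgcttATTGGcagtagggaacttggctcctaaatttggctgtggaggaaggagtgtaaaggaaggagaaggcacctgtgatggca
Elavl1: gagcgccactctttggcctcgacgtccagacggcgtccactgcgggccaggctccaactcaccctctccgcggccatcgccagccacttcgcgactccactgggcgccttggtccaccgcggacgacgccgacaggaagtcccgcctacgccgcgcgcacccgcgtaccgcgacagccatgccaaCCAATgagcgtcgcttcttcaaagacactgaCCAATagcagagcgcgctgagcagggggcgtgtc
The Rbpms2 window held 7 GC boxes and 1 CCAAT box, the Rbfox3 window 1 CCAAT box and no GC box, and the Elavl1 window 2 CCAAT boxes and no GC box. Among all 32851 RefSeq promoter windows of this length, 32.7% held a GC box, 33.8% a CCAAT box, 6.02% the E-box and 4.84% the homeodomain palindrome. The table had entries for 7 of the 9 genes, with 16 windows in all, and none for Rbpms and Rbfox2. Of those 7 genes, 6 had a window with a CCAAT box, 3 a window with a GC box, 1 a window with TAATTA and 0 a window with CACGTG. Counted by window, as the shares above are, 12 of the 16 held a CCAAT box, 7 a GC box, 2 TAATTA and 0 CACGTG.

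The neuronal genes were next compared with the broadly expressed gene of their own family in the same retina, as a log2 ratio of CPM + 1. Of the 10 ratios computed, 5 at each timepoint, all were lower in bTBI than in sham retinas on average, and 9 had an adjusted p below 0.05 (2-sided exact permutation test of the group labels, adjusted over the 10 ratios; the smallest p that 6 retinas against 6 allow is 0.00216). Ratios of a family share the broadly expressed gene and the retinas, so the 10 ratios are not independent. Rbfox3 over Rbfox2 averaged -2.24 ± 0.094 in bTBI retinas and -1.98 ± 0.068 in sham retinas at 1 week (SD, n = 6 each; difference -0.26, exact permutation p = 0.00216, adjusted 0.0108). All 6 bTBI retinas were below every sham retina for this ratio and for Rbfox1 over Rbfox2 (-1.25 ± 0.070 in bTBI retinas and -1.05 ± 0.095 in sham retinas; difference -0.20). At 5 weeks the same ratios differed by -0.24 and -0.16 (exact permutation p = 0.00866 and 0.0108, adjusted 0.0144 and 0.0155), with 5 of 6 and 4 of 6 bTBI retinas below every sham retina.

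Within the ELAVL family, Elavl2 over Elavl1 had the largest difference, with means of -1.35 ± 0.226 in bTBI retinas and -0.84 ± 0.146 in sham retinas at 1 week (SD, n = 6 each; difference -0.51, exact permutation p = 0.00433, adjusted 0.0108). At 5 weeks the means were -1.95 ± 0.148 in bTBI retinas and -1.69 ± 0.073 in sham retinas (difference -0.26, exact permutation p = 0.00433, adjusted 0.0108). In both cases 5 of 6 bTBI retinas were below every sham retina. Elavl3 over Elavl1 differed by -0.21 at 1 week and -0.12 at 5 weeks (exact permutation p = 0.00649 and 0.0152, adjusted 0.0130 and 0.0189). Elavl3 itself was not called, but calls were adjusted over all genes and had a stricter cutoff, so these outcomes cannot be compared. The unadjusted limma p of Elavl3 alone was 0.0188 at 1 week and 0.00217 at 5 weeks. Elavl4 over Elavl1 differed by -0.24 at 1 week (exact permutation p = 0.0173, adjusted 0.0192). The 5-week difference of that ratio, -0.17, missed the threshold with an exact permutation p of 0.0584. It passed, with adjusted p-values of 0.0303 to 0.0498, when bTBI replicate 3, 4 or 6 of that time was left out. It did not pass in the other 9 of the 12 fits that left out a retina (adjusted exact permutation p up to 0.119).

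**Figure D3:**
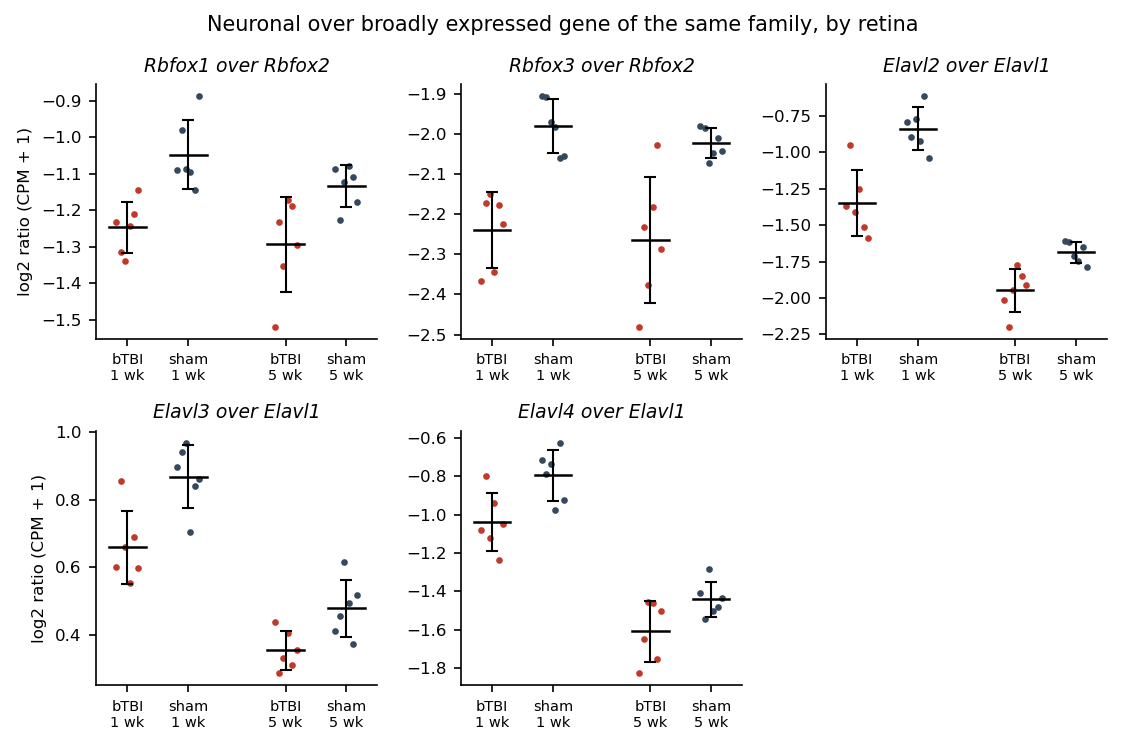
log2 ratio of a neuronal gene over the broadly expressed gene of its family (y axis, CPM + 1) in the 24 retinas by group (x axis), with 1 point a retina and the mean and SD in black. For Rbfox3 over Rbfox2 at 1 week the bTBI retinas lie between -2.37 and -2.15 and the sham retinas between -2.06 and -1.91.

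No difference between the timepoints in the response to bTBI was detected for any member. In a fit of all 24 retinas, the change at 5 weeks minus the change at 1 week was called for 0 of the 9 genes, where 0.104% of the 14455 genes in both tables were called, and the smallest unadjusted p among the members was 0.123. Elavl2 had the largest difference, 0.19 on the log2 scale, with a 95% confidence interval from -0.056 to 0.45 (limma adjusted p = 0.735). For Rbpms2 the difference was -0.0033 (95% CI -0.29 to 0.29), and for Rbpms it was -0.12 (95% CI -0.37 to 0.12).

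Other RNA-binding protein genes were read from the same fits, from a list of 58 genes in families of splicing and translation regulators (CELF, CPEB, FMR, IGF2BP, MBNL, Musashi, NOVA, PCBP, PTBP, Pumilio, SRRM, STAR-domain, Staufen, TIA and others). Of the 56 measured, 0 were called at 1 week and 1 at 5 weeks, where 2.25% and 0.835% of all genes were called. An unadjusted limma p below 0.05 at 1 week was found for 13 of the 56, and for 2575 of all 14922 genes. The median log2 fold changes of the 56 were 0.040 at 1 week and 0.010 at 5 weeks, compared with -0.31 and -0.26 for the 9 members. The range over the 56 genes was -0.30 to 0.29 at 1 week and -0.20 to 0.11 at 5 weeks. The gene called was Snrpn, an imprinted gene for a small nuclear ribonucleoprotein expressed strongly in neurons. Snrpn ranged from 99.6 to 111 CPM in bTBI retinas and from 114 to 127 CPM in sham retinas at 5 weeks, without overlap, with a log2 fold change of -0.20 ± 0.036 (SE; limma adjusted p = 0.00216). At 1 week it ranged from 124 to 153 CPM in bTBI retinas and from 158 to 186 CPM in sham retinas (log2 fold change -0.28 ± 0.057, SE; limma adjusted p = 0.00638).

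**Figure D4:**
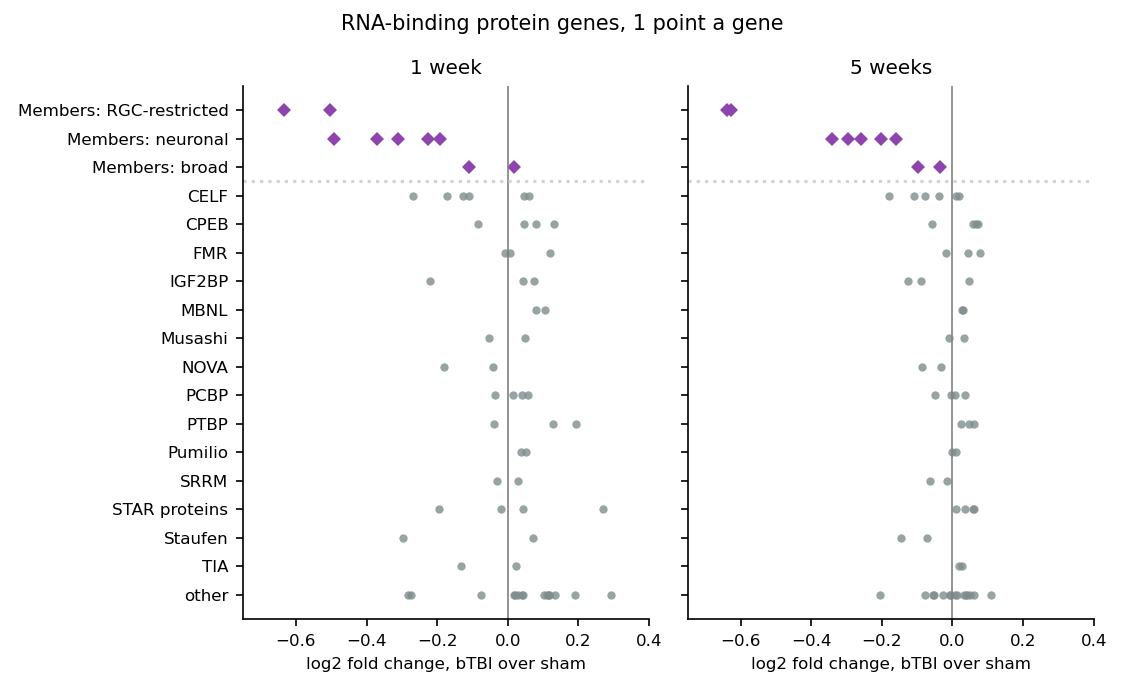
log2 fold change of bTBI over sham (x axis) for the 9 members (diamonds) and 56 other RNA-binding protein genes by family (circles, y axis) at 1 week (left) and 5 weeks (right), with 1 point a gene. The RGC-restricted members lie at -0.50 or lower, and the other families lie between -0.30 and 0.29.

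A further 5 mRNAs known from brain or cultured neurons to be bound or regulated by RBFOX or ELAVL proteins were also examined (Vamp1, Camk2a, Kcna1, Gap43 and Bdnf). Vamp1 was called lower at both timepoints and the other 4 at neither. Vamp1 encodes synaptobrevin 1, a vesicle protein of the synaptic fusion machinery, and its mRNA is bound by RBFOX1 in its 3′ UTR in brain. At 1 week Vamp1 ranged from 33.6 to 76.6 CPM in bTBI retinas (median 47.6), vs. 96.5 to 119 CPM in sham retinas (median 103), with a log2 fold change of -1.14 ± 0.148 (SE; limma adjusted p = 3.34e-04). At 5 weeks it ranged from 78.1 to 91.0 CPM in bTBI retinas (median 86.8), vs. 116 to 130 CPM in sham retinas (median 121), with a log2 fold change of -0.51 ± 0.039 (SE; limma adjusted p = 2.34e-07). The groups did not overlap at either time. The difference between the timepoints was 0.63 on the log2 scale (SE 0.161) and was not called (limma adjusted p = 0.0632). Whether the lower level of Vamp1 has a link to the lower level of Rbfox1 or Rbfox3 was not tested.

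The longest annotated 3′ UTR of Vamp1 (2512 bases) held 4 copies of TGCATG, the DNA form of the RBFOX motif, on the transcribed strand. Of 1297 genes whose longest 3′ UTR was within 10% of this length, 57% held at least 1 copy and 2.47% at least 4. The windows of 30 bases around the copies are shown to give the place of each copy, with the motif in capitals. They lie on the + strand at chr6:125220489-125220518, chr6:125220985-125221014, chr6:125221260-125221289 and chr6:125221904-125221933 (GRCm38, GENCODE M21).
Vamp1 copy 1: gcttgctgccagTGCATGtgtatatgcaca
Vamp1 copy 2: agaaatgagagcTGCATGgcaagactccca
Vamp1 copy 3: tttcactcccttTGCATGctgtgtttgttg
Vamp1 copy 4: ccaccacccatgTGCATGagcaaatatgca
The longest 3′ UTRs of the other mRNAs held 3 copies in Bdnf, 2 in Kcna1, 1 in Camk2a and 0 in Gap43. These mRNAs were listed for either RBFOX or ELAVL proteins, so the counts do not compare RBFOX targets alone. A match of these letters is not evidence of binding in the retina.

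Camk2a, the alpha subunit of the calcium/calmodulin-dependent kinase, had log2 fold changes of -0.21 ± 0.065 at 1 week and -0.17 ± 0.049 at 5 weeks (SE; limma adjusted p = 0.0715 and 0.0735). Kcna1, a voltage-gated potassium channel of axons, had -0.31 ± 0.105 and -0.27 ± 0.083 (limma adjusted p = 0.108 and 0.134). Gap43, a growth-cone protein whose mRNA is stabilized by HuD, had -0.048 ± 0.073 at 1 week and -0.23 ± 0.068 at 5 weeks (limma adjusted p = 0.825 and 0.0956). Bdnf, a neurotrophin, had -0.16 ± 0.124 and -0.067 ± 0.171 (limma adjusted p = 0.608 and 0.947).

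**Figure D5:**
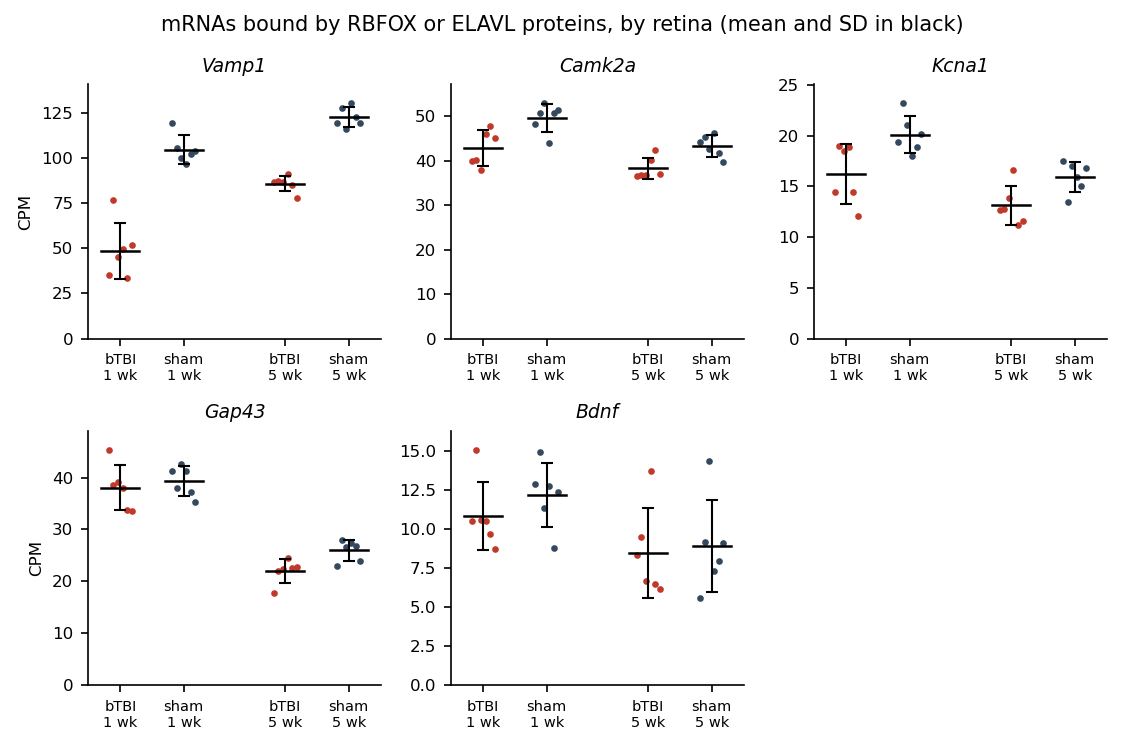
Level in CPM (y axis, from 0) of 5 mRNAs bound by RBFOX or ELAVL proteins in the 24 retinas by group (x axis), with 1 point a retina and the mean and SD in black. Vamp1 is the gene whose bTBI and sham retinas do not overlap at either timepoint, with bTBI medians of 47.6 CPM at 1 week and 86.8 CPM at 5 weeks.

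Cell type markers moved beside the members as follows. Of 12 RGC markers, none of them a member, 9 were called lower at 1 week and 11 at 5 weeks, with median log2 fold changes of -0.51 and -0.57, beside -0.50 and -0.63 for Rbpms and -0.63 and -0.64 for Rbpms2. The mean log2(CPM + 1) of the RGC markers was 5.47 to 6.12 in bTBI retinas and 6.20 to 6.45 in sham retinas at 1 week. The 5-week values were 4.87 to 5.37 in bTBI retinas and 5.61 to 5.73 in sham retinas. Of 9 amacrine markers, which share Elavl and Rbfox genes with RGCs, 0 were called at either timepoint, with median log2 fold changes of -0.046 and 0.032 and 0 unadjusted limma p-values below 0.05. Of the horizontal, bipolar, rod, cone and Müller glia markers, 0 were called at either time, and unadjusted limma p-values below 0.05 were found for 5 of 7 Müller glia markers and 1 gene of each other list at 1 week, and for 1 or 2 genes of each list at 5 weeks. Over all genes, an unadjusted limma p below 0.05 was found for 2575 of 14922 at 1 week and 1739 of 15920 at 5 weeks. Of 9 microglia markers, 7 were called higher at 1 week, and of 8 measured at 5 weeks 0 were (2 had an unadjusted limma p below 0.05). The part of RGC and microglia content in the members' changes was not tested. Without bTBI replicates 5 and 6, the retinas rich in lens transcripts, the 1-week log2 fold changes were -0.45 for Rbpms, -0.55 for Rbpms2, -0.36 for Rbfox3 and -0.38 for Elavl2, and only Rbpms2 was called.

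The members also varied among retinas of the same group. Deviations from the group mean, over all 24 retinas, gave a Pearson r of 0.75 between Rbpms and Rbpms2, the highest of the 36 pairs of members, and the lowest was -0.048 between Rbpms and Elavl1. These values are descriptions, since the genes of a retina share its library. The genes with the most similar deviations among 14453 genes were, for Rbpms, Sncg (r = 0.90), Chrna6 (r = 0.87) and Cplx1 (r = 0.86), and for Rbpms2, Dpp10 (r = 0.87), Nell2 (r = 0.86) and Thy1 (r = 0.81). Sncg encodes gamma-synuclein, Chrna6 a nicotinic receptor subunit and Thy1 a surface glycoprotein, and these 3 are in the RGC marker list. For Rbfox3 they were Gria3 (r = 0.86), Gabbr2 (r = 0.81) and Srgap1 (r = 0.81), the first an AMPA receptor subunit and the second a GABA-B receptor subunit. For Elavl4 they were Zfp260 (r = 0.87), Pafah1b1 (r = 0.87) and Ttll7 (r = 0.86).

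Sncg had log2 fold changes of -0.78 ± 0.114 at 1 week and -0.76 ± 0.072 at 5 weeks (SE), larger decreases than those of Rbpms. Neither Gria3, the nearest gene to Rbfox3, nor Zfp260, the nearest to Elavl4, was called at either time. Gria3 had -0.11 ± 0.067 at 1 week and -0.11 ± 0.053 at 5 weeks (SE; limma adjusted p = 0.421 and 0.485), and Zfp260 had 0.057 ± 0.066 and -0.023 ± 0.051 (limma adjusted p = 0.756 and 0.939).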

How the data were processed

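Total RNA of each retina was poly(A)-selected, and the authors made stranded libraries, sequenced 75 bp paired-end reads and aligned them to GRCm38 (STAR). The authors quantified genes by featureCounts and tested groups in edgeR. The deposited signal values are gene-level counts scaled by the authors to the effective library size of each retina (CPM), without low-count genes, and the tables of each timepoint were normalized separately. Within a retina the values were whole multiples of a step, to within 0.01 of it. If a step is 1 read, which could not be settled from the tables, the depth was 14301989 to 25158638 reads per retina (median 19867822). Gene IDs matched GENCODE M21 symbols for 14907 of 14922 and 15902 of 15920 rows. Exonic length is the union of annotated exons, which overstates the length of an mRNA.

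Groups were compared within each timepoint with limma 3.58.1 (R 4.3.3) on log2(CPM + 1), with a trended prior and Benjamini-Hochberg adjustment over all genes, and fold changes on this scale understate changes of low genes. A single fit of all 24 retinas gave the difference between timepoints. The fitting code was tested on simulated data. Labels mark each retina as a separate sample, and p-values measure the spread between these samples. The text names each member, each other RNA-binding protein gene called at either timepoint, the listed RBFOX or ELAVL targets except 1 that is not reported here, and the 3 genes closest to Rbpms, Rbpms2, Rbfox3 and Elavl4 in their deviations. The members and lists were chosen with earlier results of these data known. The alternatives tried were other scalings, a CPM filter, a pseudocount of 0.1, other priors, a replicate block, a single fit, a threshold of 0.05 and omission of retinas.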

Additional observations from a re-analysis of the deposited data

Results flagged for a closer look

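Elavl4 in sham retinas at 5 weeks had 1 retina apart from the rest. Sham replicate 3 had 26.66 CPM, and the other 5 sham retinas had 22.12 to 22.95 CPM, so that the gap to its nearest neighbor was 0.817 of the whole range of the group. This is past the 95% limit of Dixon's test for 6 samples, and chance gives about 1 such retina in 20 groups, with 36 groups of the 9 genes examined. The same retina was the highest of its group for 2 of the 9 genes.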

How the results depend on the processing

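Across alternatives the direction of the members' changes within a timepoint held, except for Elavl1 at 1 week, where leaving out a retina gave values on both sides of 0. At 1 week the count of members called, 4, became 2 with scaling by the median of ratios, and 1 with scaling by library totals, a prior without trend, the replicate block, or without both lens-rich bTBI retinas. It became 5, with Rbfox1 added, in a single fit of 24 retinas and at a threshold of 0.05. Leaving out each retina gave 1 to 4. At 5 weeks the count of 3 became 1 with a prior without trend and 5 at a threshold of 0.05, and 2 to 4 when each retina was left out. Over all genes, the calls at 1 week (336) became 685 in a single fit of 24 retinas, 907 at a threshold of 0.05, 112 without both lens-rich retinas and 189 to 486 when each retina was left out. Those at 5 weeks (133) became 56 with a prior without trend, 75 in a single fit, 326 at a threshold of 0.05 and 88 to 163 when each retina was left out. The calls of the difference between timepoints (15) became 111 at a threshold of 0.05 and 9 to 111 when each retina was left out; 111 was reached without bTBI replicate 2 of 1 week. The within-family ratios past the threshold (9 of 10) numbered 9 or 10 when each retina was left out. The cause of these shifts was not tested.

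When each retina was left out, the log2 fold change of Elavl1 at 1 week ran from -0.013 to 0.046. The difference between timepoints ran from -0.077 to 0.082 for Rbpms2, -0.0078 to 0.038 for Rbfox2, -0.016 to 0.076 for Rbfox3, -0.0031 to 0.070 for Elavl3 and -0.022 to 0.090 for Elavl4, with both signs in each. Between same-numbered retinas the r of deviations was 0.54 for replicate 1 at 1 week. It was -0.25 to 0.17 for the other numbers at 1 week and -0.11 to 0.15 at 5 weeks. The numbers were therefore not taken to pair retinas. With the replicate block 293 genes were called at 1 week, 134 at 5 weeks and 14 for the difference, and 7 of 10 ratios passed. The ratios lost were Elavl4 over Elavl1 at 1 week (adjusted exact permutation p = 0.0938) and Elavl3 over Elavl1 at 5 weeks (0.0694). Count-based tests planned as alternatives were not run, since the deposited values are not counts and the size of a read could not be settled from them.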

Other observations

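A few retinas stood at the end of their group for many of the 9 genes. bTBI replicate 2 at 1 week had the highest level of its group for 7 of 9 members and the lowest for 0, and it also had the highest mean of the RGC markers among the bTBI retinas (6.12 on the log2(CPM + 1) scale, vs. 5.47 to 5.79 in the other 5) and the lowest mean of the microglia markers (3.85, vs. 4.39 to 5.16). bTBI replicate 1 at 5 weeks had the lowest level for 6 of 9 members and the lowest RGC marker mean (4.87, vs. 5.05 to 5.37 in the other 5). Sham replicate 4 at 1 week was lowest for 5 of 9 members, although its RGC marker mean, 6.23, was within 6.20 to 6.45, the range of its group. Sham replicate 6 at 5 weeks was also lowest for 5 of 9 members, and its RGC marker mean, 5.61, was the lowest of its group (5.695 to 5.734 in the other 5).

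Outside the members, Stau2, which encodes a dendritic RNA transport protein, and Celf4, a neuronal regulator of mRNA stability and translation, had log2 fold changes at 1 week of -0.30 ± 0.067 and -0.17 ± 0.039 (SE; limma adjusted p = 0.0132 and 0.0133). They were singled out after their values were seen, and neither passed the threshold.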
